A study of Mus musculus with 45 samples.

Results

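The nuclear genes of the respiratory chain and the ATP synthase were examined in the brain of adult mice, complex by complex. Members were the protein-coding genes of the deposited table whose symbols carry the family names of complex I (Nduf), complex II (Sdh), complex III (Uqcr and Cyc1), complex IV (Cox) and complex V (Atp5) and whose mean over all samples was at least 10 normalized counts. This gave 80 of 18135 genes, of which 37 belonged to complex I, 4 to complex II, 9 to complex III, 13 to complex IV and 17 to complex V. Of 83 genes that matched by name, Cox8b had a mean of 5.26, and Ndufb4c and Ndufb1-ps are not protein-coding. The name patterns did not take in Cox4i1, Cox4i2, Ndufab1 and Cycs, which are given separately. Ndufa4 was kept with complex I by its name, although its protein is known as a subunit of complex IV, and reads of Ndufb4 may be shared with the Ndufb4c pseudogene.

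Polyadenylated RNA of whole tissue was sequenced from prefrontal cortex (cortex hereafter), hippocampus and striatum of male C57BL/6J mice aged 13 weeks. Each region was taken from WT mice, from heterozygous mice with 1 mutant Shank3 allele (Shank3-HT) and from homozygous mice (Shank3-HM), whose mutant alleles lack a stretch of internal exons of the gene. There were 5 samples in each of the 9 groups, 45 in all, and the labels give no other allele and no treatment. Neurons and other cells were measured together, and in such bulk tissue fewer cells of a type and less RNA per cell cannot be told apart. The study describes as many mice per genotype as there are samples in a group, so that the 3 regions of a genotype appear to come from the same mice. The labels do not say which samples share a mouse, and p-values between regions treat the samples as independent.

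The respiratory chain passes electrons from NADH (complex I) and succinate (complex II) through complex III and cytochrome c to complex IV, which reduces oxygen, and the proton gradient built on the way drives ATP synthesis in complex V. A few subunits are encoded in mitochondrial DNA and all others in the nucleus, so that an assembled complex needs products of both genomes, except complex II, which is wholly nuclear. In the brain most ATP for ion pumping and synaptic transmission comes from this pathway, and Shank3 is a scaffold protein of excitatory synapses.

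The Shank3 transcript itself followed the labels in every region. In cortex it ranged over 6985 to 8717 normalized counts for WT, 5748 to 6607 for Shank3-HT and 3689 to 4446 for Shank3-HM mice, over 7566 to 8468, 5611 to 6108 and 3678 to 4019.6 in hippocampus, and over 11309 to 12739.8, 7959 to 9323 and 4569 to 6242 in striatum. The mean level of the marker genes of each region was higher in all 15 samples of that region than in the other 30, and the sums of normalized counts were 26118607 to 29568983 per sample, which are not sequencing depths. Several libraries stood apart. In Hippocampus WT replicate 1, the mean log2 level of the 80 members, taken relative to all genes, was 0.41 above the median of its group. In Cortex Shank3-HM replicate 2, striatal markers were 3.85 above the group median and cortical markers at -0.84 from the group median on the log2 scale, and in Striatum WT replicate 5 cortical markers were 1.13 above it. Among the mutant striata, cortical markers were at -2.30 in Shank3-HT replicate 2, -1.06 in Shank3-HT replicate 5 and -1.35 in Shank3-HM replicate 4, and choroid plexus markers at 5.52 in Shank3-HT replicate 5. Choroid plexus markers also varied between hippocampi, with Hippocampus WT replicate 2 at -2.56.

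Within each complex, the levels of the members spanned a wide range in WT cortex. Levels of different genes are compared here per kilobase of transcript, since most members are short, with a median transcript of 743.5 nt against 2789 nt for the other protein-coding genes. In complex I, the highest level was that of Ndufa4 (6172 normalized counts per kb) and the lowest that of Ndufa4l2, its paralog known from hypoxia (48.2). Sdha, the flavoprotein that oxidises succinate, led complex II (3233) and Sdhc, a membrane anchor, was lowest (693). In complex III the highest was the hinge protein Uqcrh (5219.6) and the lowest the Rieske iron-sulfur protein Uqcrfs1 (1317). Complex IV had the widest range as a ratio of the highest to the lowest level, from Cox6b2, known as a testis isoform (36.3), to the small membrane subunit Cox8a (10803). Atp5b, the catalytic beta subunit, was the highest of all 80 (11581), and Atp5s was lowest in complex V (205). The same genes were highest and lowest in WT hippocampus and striatum, except that Cox7a1 took the lowest place in complex IV. The median per kb was 1502 in complex I and 1502 in complex II, and 2618, 3005 and 3169 in complexes III to V.

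Differences between regions were examined first in WT mice, to see how far the members vary across normal tissue (limma on log2 of the normalized count plus 1, one fit of the 9 groups, Benjamini-Hochberg over 16708 genes, threshold 0.05). Fewer of the respiratory chain genes than of all genes were called, and most calls put hippocampus on top. Between cortex and hippocampus 21 members were called (1 higher and 20 lower in cortex), which is 26.25% of the members against 46.6% of all genes tested (23.3% higher and 23.3% lower). Between cortex and striatum 20 were called (9 higher and 11 lower in cortex), 25% against 59.3% (29.3% higher and 30% lower). Between hippocampus and striatum 33 were called (29 higher and 4 lower in hippocampus), 41.25% against 56.1% (28.3% higher and 27.8% lower). The median absolute log2 difference was 0.11, 0.14 and 0.16 over the members and 0.25, 0.33 and 0.31 over all genes. Differences above 0.5 were found for 2, 3 and 2 members. The median signed difference was -0.10, 0.034 and 0.15, against -0.0056, -0.011 and 0.0019 over all genes. By WT mean, 57 of the 80 were highest in hippocampus, 15 in striatum and 8 in cortex, and in all 3 genotypes 22, 14 and 7 kept that place. Without Hippocampus WT replicate 1, 36 were highest in hippocampus, 17 in striatum and 27 in cortex. The comparisons share samples pairwise and are not independent. In the order of the comparisons above, 32.0%, 46.3% and 38.5% of all genes tested had no overlap between the WT samples of the regions. Several genes named below were chosen among called members without overlap, so that their lack of overlap was set by the choice.

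The hippocampal side of these comparisons rested in part on 1 library. Without Hippocampus WT replicate 1, 7 members were called between cortex and hippocampus (1 higher and 6 lower, 45.3% of all genes) with a median of -0.020, and all 7 had also been called with it. Between hippocampus and striatum 25 were called without it (17 higher and 8 lower, 53.2% of all genes) with a median of 0.053, of which 21 were shared with the 33. Leaving out Hippocampus WT replicate 2 moved the counts the other way, to 27 between cortex and hippocampus (46.1% of all genes, median -0.16) and 49 between hippocampus and striatum (55.6%, median 0.20). The 4 others called without replicate 1, Atp5a1, Atp5b, Ndufs3 and Ndufs4, were lower in hippocampus. Without Striatum WT replicate 5, the calls were 9 higher and 11 lower in cortex against striatum (58.4% of all genes) and 30 higher and 5 lower in hippocampus against striatum (55.3%).

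**Figure D1:**
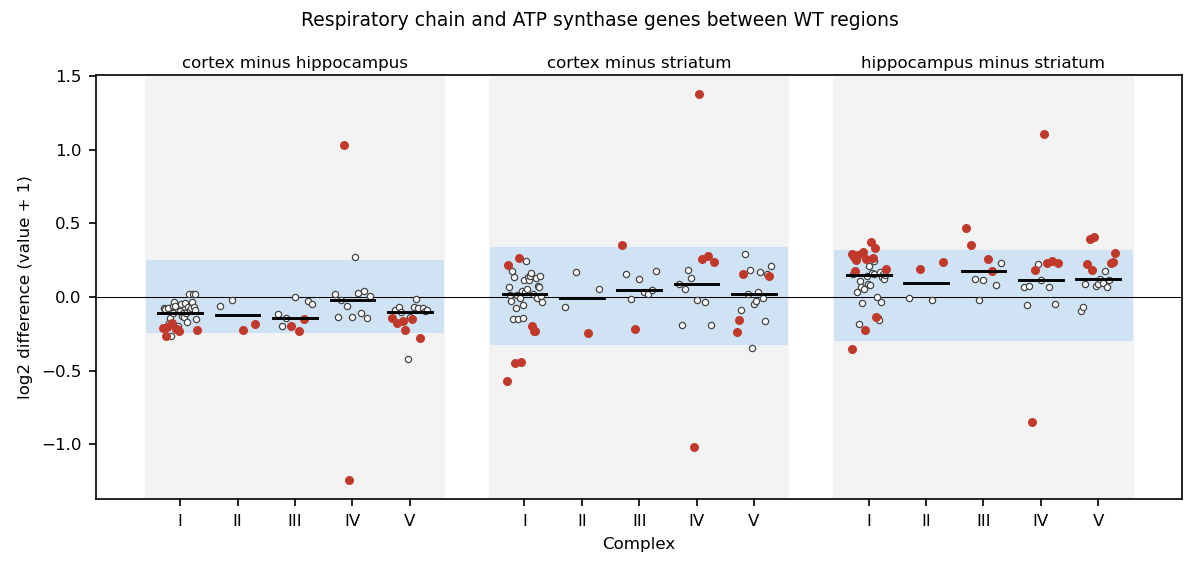
Log2 differences between WT regions for the members of each complex, with 1 point per gene, filled red where called and open where not, a bar at the median of the complex and a blue band for the interquartile range of all genes tested. Most points lie inside or near the band, complex IV holds the points farthest from 0, and 29 of 33 calls between hippocampus and striatum are above 0.

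Single subunits of complex I went opposite ways between regions. Between cortex and hippocampus 0 higher and 8 lower of 37 members were called (median -0.11, and 0 higher and 2 lower with a median of -0.019 without Hippocampus WT replicate 1). Between cortex and striatum 2 higher and 6 lower were called (median 0.020, which was -0.0020 without Cortex WT replicate 1), and between hippocampus and striatum 11 higher and 3 lower (median 0.15, or 0.051 without Hippocampus WT replicate 1, with 6 higher and 5 lower). Of all genes, 23.3% were called higher and 23.3% lower in the first comparison, 29.3% and 30% in the second and 28.3% and 27.8% in the third. The calls of complexes II to V below have the same shares of all genes beside them. Ndufa1 (ENSMUSG00000016427, chrX:37187588-37191163, minus strand, GRCm38), a small accessory subunit of the membrane arm, was highest in striatum. Its normalized counts in WT striatum were 933, 889, 899, 872 and 821. In WT cortex they were 633, 555, 671, 565 and 559, and in WT hippocampus 802, 619, 678, 780.3 and 594. The 5 striatal values lay above all 10 others, and the gene differed from cortex (log2 difference -0.57, SE 0.090, adjusted p = 6.27e-07) and from hippocampus (log2 difference -0.35, SE 0.090, adjusted p = 8.42e-04, and log2 difference -0.41, adjusted p = 2.44e-04 without Hippocampus WT replicate 1).

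Ndufb10 (ENSMUSG00000040048, chr17:24722060-24724478, minus strand), an accessory subunit of the same arm, had the smallest adjusted p of any member between cortex and striatum. WT striatum had 2569, 2479, 2321, 2435 and 2269.8 normalized counts, WT cortex 1862, 1784, 1814, 1828 and 1607 and WT hippocampus 2488, 1905, 1926, 2048 and 2000.2. Striatum was above cortex in every sample (log2 difference -0.44, SE 0.054, adjusted p = 2.57e-09), and overlapped with hippocampus only through the first hippocampal sample (log2 difference -0.23, SE 0.054, adjusted p = 4.51e-04). Without that sample the difference from hippocampus was -0.29, adjusted p = 1.60e-06. Cortex was also below hippocampus (log2 difference -0.22, SE 0.054, adjusted p = 9.91e-04, and log2 difference -0.15, adjusted p = 0.0104 without that sample).

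Other subunits of complex I were lowest in striatum. Ndufa8, an accessory subunit of the membrane arm, had 1489 ± 77.9 normalized counts in WT cortex, 1537 ± 229 in WT hippocampus and 1239 ± 95.1 in WT striatum (SD, n = 5), with the 5 striatal values at 1348, 1125, 1220.4, 1177 and 1323. These lay below all 10 values of the other regions (log2 difference 0.27, SE 0.064, adjusted p = 3.64e-04 for cortex against striatum, and log2 difference 0.30, SE 0.064, adjusted p = 8.22e-05 for hippocampus against striatum, or log2 difference 0.22, adjusted p = 8.67e-04 without Hippocampus WT replicate 1). Ndufa10, a matrix-side accessory subunit, had 2603, 2562, 2628, 2419 and 2424 in WT striatum against 3170.0, 2811, 2835, 2873 and 3002 in WT cortex, with no overlap (log2 difference 0.22, SE 0.058, adjusted p = 0.00132). Ndufa12, an accessory subunit of the matrix arm, was lower in cortex than in hippocampus (log2 difference -0.26, SE 0.075, adjusted p = 0.00335, and log2 difference -0.20, adjusted p = 0.0257 without Hippocampus WT replicate 1). Of the core subunits that carry the iron-sulfur clusters and flavin, Ndufs1 was lower in cortex than in striatum (log2 difference -0.20, SE 0.052, adjusted p = 0.00106), whereas Ndufv1 (log2 difference 0.14, SE 0.073, adjusted p = 0.0878) did not pass.

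Of the 4 members of complex II, 2 were called lower in cortex than in hippocampus, 1 lower in cortex than in striatum and 2 higher in hippocampus than in striatum. Sdhc was lower in WT cortex (1521, 1277, 1311, 1379 and 1413 normalized counts) than in WT striatum (1568, 1548, 1631, 1764 and 1644), without overlap (log2 difference -0.24, SE 0.087, adjusted p = 0.0158). Sdhd, the other membrane anchor, was higher in WT hippocampus (1955, 1548, 1661, 1744 and 1752) than in WT striatum (1507, 1393, 1527, 1432 and 1456), also without overlap (log2 difference 0.24, SE 0.055, adjusted p = 2.41e-04, and log2 difference 0.20, adjusted p = 0.00233 without Hippocampus WT replicate 1). Sdhc itself had 1621 ± 243 in WT hippocampus, and its difference from striatum was not called (adjusted p = 0.853). Sdha was at 9374 ± 179 in WT cortex, 9799 ± 283 in WT hippocampus and 9829 ± 284 in WT striatum (SD, n = 5), and passed in none of the 3 comparisons with all samples (adjusted p = 0.0853, 0.0532 and 0.913), but was called lower in cortex than in striatum without Striatum WT replicate 5 (log2 difference -0.084, adjusted p = 0.0236). Sdhb, the iron-sulfur subunit, passed between hippocampus and striatum (log2 difference 0.19, SE 0.077, adjusted p = 0.0328) but not without Hippocampus WT replicate 1 (log2 difference 0.10, adjusted p = 0.244). Without that library, Sdhd was the only call of complex II in both comparisons with hippocampus, 1 lower in cortex (complex median -0.10) and 1 higher in hippocampus than in striatum (median 0.041).

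In complex III, Cyc1 (ENSMUSG00000022551, chr15:76343523-76346260, plus strand), the cytochrome c1 that hands electrons to cytochrome c, was lowest in striatum. Its normalized counts were 1988, 2295, 2341, 2089 and 2188 in WT striatum, 3022, 2482, 3011, 2654 and 2754 in WT cortex and 3602, 2752, 3177, 3059 and 2584 in WT hippocampus. All 5 striatal values were below the 10 others (log2 difference 0.35, SE 0.070, adjusted p = 3.61e-05 for cortex against striatum, and log2 difference 0.47, SE 0.070, adjusted p = 2.38e-07 for hippocampus against striatum, or log2 difference 0.41, adjusted p = 3.02e-06 without Hippocampus WT replicate 1). Uqcrc2, a core subunit on the matrix side, was highest in hippocampus (4464, 4130.2, 4194, 4026 and 4049.9) and had 3834, 3602, 3635, 3517 and 3241 in cortex and 3693, 3436, 3493, 3374 and 3411 in striatum. The hippocampal values were above all others (log2 difference -0.23, SE 0.049, adjusted p = 1.71e-04 for cortex against hippocampus, and log2 difference -0.20, adjusted p = 0.00110 without replicate 1). Its partner Uqcrc1 was not called in any of the 3 comparisons (adjusted p = 0.987, 0.0525 and 0.0581), and Uqcrfs1 was lower in cortex than in hippocampus (log2 difference -0.15, SE 0.064, adjusted p = 0.0476) but not without replicate 1. Of the 9 members, 8 had their highest WT mean in hippocampus (5 without Hippocampus WT replicate 1), with 0 higher and 3 lower called for cortex against hippocampus, 1 higher and 1 lower for cortex against striatum and 4 higher and 0 lower for hippocampus against striatum. When Hippocampus WT replicate 1 was left out, the calls were 0 higher and 1 lower (median -0.054) for cortex against hippocampus, which was Uqcrc2, and 3 higher and 0 lower (median 0.12) for hippocampus against striatum.

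The differences above 0.5 were, with the exception of Ndufa1 between cortex and striatum, those of low isoforms of complex IV that are known from other tissues. Cox6a2 (ENSMUSG00000030785, chr7:128205435-128206387, minus strand), known as the isoform of heart and skeletal muscle, had 153, 119, 128, 92.8 and 99.1 normalized counts in WT cortex, 106, 101, 101, 98.3 and 105 in WT striatum and 59.0, 51.3, 47.6, 62.9 and 63.0 in WT hippocampus. The 5 hippocampal values were below the 10 others (log2 difference 1.03, SE 0.15, adjusted p = 1.70e-07 for cortex against hippocampus, and log2 difference -0.85, SE 0.15, adjusted p = 4.97e-06 for hippocampus against striatum). Without Hippocampus WT replicate 1 these were 1.05, adjusted p = 5.91e-07, and -0.86, adjusted p = 1.30e-05. It made up 2.47 ± 0.460% of the sum of Cox6a1 and Cox6a2 in WT cortex, 1.19 ± 0.171% in hippocampus and 2.23 ± 0.0975% in striatum, while the ubiquitous Cox6a1 was not called between any pair (adjusted p = 0.833, 0.483 and 0.337).

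Cox7a1 (ENSMUSG00000074218, chr7:30184144-30186078, plus strand), the muscle form of subunit 7a, was near the lower limit of the data. It had 15, 15.6, 15.3, 12.7 and 23.5 normalized counts in WT cortex, 15.1, 11.4, 6.44, 22.1 and 15.3 in WT hippocampus and 5.91, 8.88, 3.97, 2.55 and 9.15 in WT striatum. The striatal values were all below the cortical ones and overlapped with the hippocampal ones. The mean over all striatal samples was under 10, so that the gene entered the fit of the 9 groups only through cortex and hippocampus, and its differences from striatum (log2 difference 1.38 for cortex and 1.1 for hippocampus) are a description, although it is among the members counted as called. Cox6b2 (ENSMUSG00000051811, chr7:4751792-4753094, minus strand) had 11.5, 18.3, 10.5, 18.9 and 19.9 in WT cortex, 34.9, 24.6, 35.8, 61.6 and 39.1 in WT hippocampus and 34.8, 30.6, 28.5, 34.8 and 31.7 in WT striatum. The cortical values were below all others (log2 difference -1.24, SE 0.29, adjusted p = 3.74e-04 against hippocampus, and log2 difference -1.02, SE 0.29, adjusted p = 0.00227 against striatum). These isoforms were a minor part, with Cox7a1 at 1 ± 0.353% of Cox7a1 and Cox7a2 and Cox6b2 at 0.588 ± 0.195% of Cox6b1 and Cox6b2 in WT cortex. At such low levels, the pseudocount of 1 makes these log2 differences smaller than the ratios of the counts.

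Among the main subunits of complex IV, Cox8a was lower in striatum, with 4904, 5128, 4802, 5121 and 5280.4 normalized counts in WT striatum and 5939.7, 6224, 6073, 5754 and 5719 in WT cortex, without overlap (log2 difference 0.24, SE 0.069, adjusted p = 0.00323). Cox7b (log2 difference 0.28, SE 0.070, adjusted p = 6.37e-04) and Cox7a2 (log2 difference 0.26, SE 0.079, adjusted p = 0.00457) were also higher in cortex than in striatum. Cox5a and Cox5b, subunits of the matrix-facing part, were not called in any WT comparison, with log2 differences from -0.19 to 0.091. With Hippocampus WT replicate 1 left out, complex IV had 1 higher and 1 lower (median 0.049) called for cortex against hippocampus and 3 higher and 1 lower (median 0.023) for hippocampus against striatum (with it, 1 higher and 1 lower, and 5 higher and 1 lower). Of the genes outside the name patterns, Cox4i2, the alternative form of the regulatory subunit 4, was higher in striatum (65.3 ± 4.48, SD, n = 5) than in cortex (31.7 ± 9.76) and hippocampus (23.1 ± 4.53), with log2 differences of -1.09 (adjusted p = 1.11e-05) for cortex against striatum and -1.48 (adjusted p = 3.39e-08) for hippocampus against striatum. Ndufab1, the acyl carrier protein of complex I, was higher in hippocampus (1605 ± 221) than in cortex (1315 ± 105, log2 difference -0.28, adjusted p = 0.0117) and striatum (1286 ± 105, log2 difference 0.31, adjusted p = 0.00414), of which the first did not pass without Hippocampus WT replicate 1 (log2 difference -0.21, adjusted p = 0.0655) and the other did (log2 difference 0.24, adjusted p = 0.0283), whereas Cox4i1, the main form of subunit 4, and cytochrome c (Cycs) passed in none of the 3 comparisons (smallest adjusted p = 0.319 for Cox4i1 and 0.802 for Cycs).

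**Figure D2:**
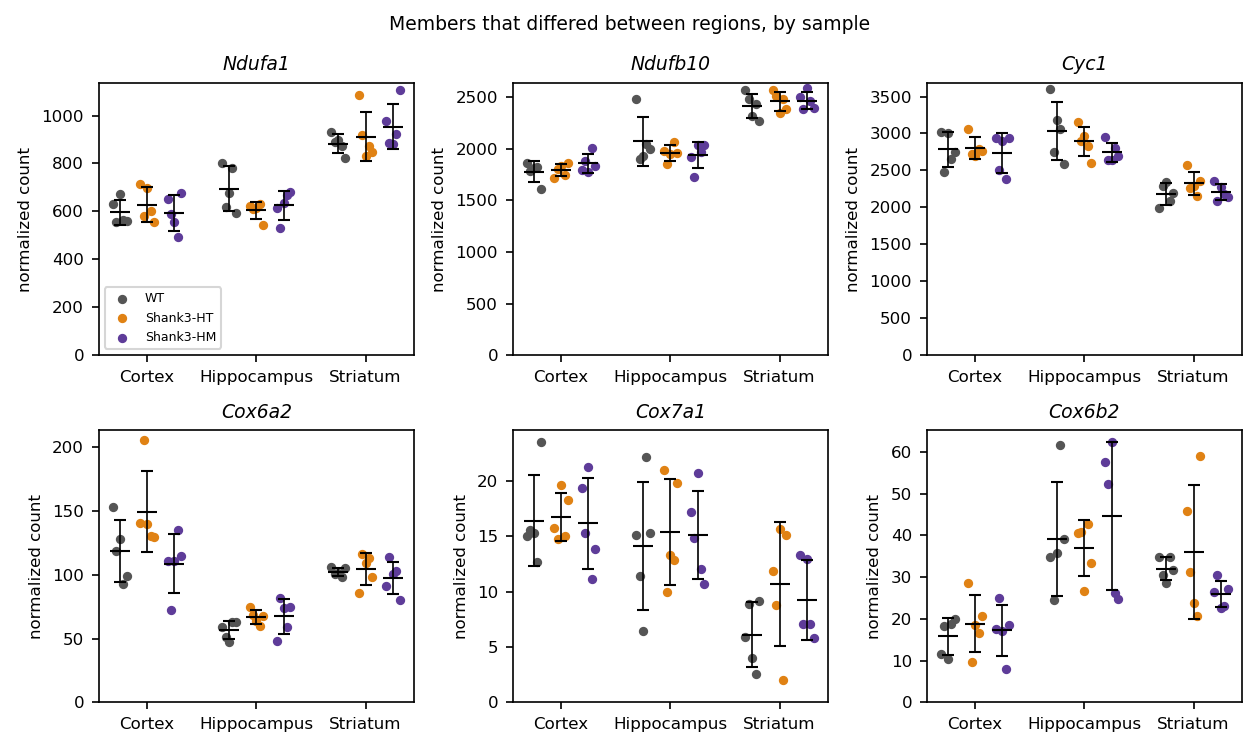
Normalized counts of Ndufa1, Ndufb10, Cyc1, Cox6a2, Cox7a1 and Cox6b2 in each of the 45 samples by region and genotype, with the mean and SD of each group of 5. The group means of Ndufa1 and Ndufb10 are highest and those of Cyc1 and Cox7a1 lowest in striatum in every genotype, those of Cox6a2 are lowest in hippocampus and those of Cox6b2 lowest in cortex.

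In complex V, the large subunits of the catalytic head were higher in striatum than in cortex, and several others were higher in hippocampus. Atp5a1, the alpha subunit, had 16707, 15905, 15960.2, 15593 and 15143 normalized counts in WT cortex and 19704, 19240.4, 18939, 18339 and 17449 in WT striatum. The groups did not overlap (log2 difference -0.24, SE 0.043, adjusted p = 7.03e-06), and cortex was also below hippocampus (log2 difference -0.14, SE 0.043, adjusted p = 0.00517, and log2 difference -0.11, adjusted p = 0.0362 without Hippocampus WT replicate 1). Atp5b went the same way against striatum (log2 difference -0.16, SE 0.061, adjusted p = 0.0238). Atp5d, the delta subunit of the central stalk, was higher in WT cortex (3321, 3256, 3294, 2969.7 and 3167) than in WT striatum (2884, 2937, 2787, 2928 and 2836), without overlap (log2 difference 0.15, SE 0.063, adjusted p = 0.0339), but this call was lost when any 1 of 5 samples was left out (adjusted p = 0.0565 without Striatum WT replicate 5).

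Atp5g1, Atp5g2 and Atp5g3 encode the same mature c subunit of the proton-carrying ring. Atp5g1 was higher in WT hippocampus (3736, 2634, 2807, 3064 and 2755 normalized counts) than in WT striatum (2466, 1963, 2162, 2144 and 2519), without overlap (log2 difference 0.41, SE 0.084, adjusted p = 6.18e-05, and log2 difference 0.33, adjusted p = 7.62e-04 without Hippocampus WT replicate 1). It supplied 48.0 ± 0.791% of the sum of the 3 genes in hippocampus and 42.4 ± 1.58% in striatum, Atp5g3 49.4 ± 0.885% and 54.6 ± 1.66%, and Atp5g2 2.64 ± 0.448% and 2.99 ± 0.815%. Atp5g3 itself was not called between these regions (log2 difference 0.085, SE 0.080, adjusted p = 0.372). All 17 members of complex V had a log2 difference below 0 between cortex and hippocampus, of which 6 were called, and without Hippocampus WT replicate 1 there were 13 below 0 and 1 called.

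The mutant mice gave separate samples for the same regional comparisons. In Shank3-HT mice 8, 23 and 22 members were called between cortex and hippocampus, cortex and striatum, and hippocampus and striatum (10%, 28.75% and 27.5% of the members, against 45%, 58.6% and 53.6% of all genes). In Shank3-HM mice the numbers were 4, 21 and 19 (5.0%, 26.25% and 23.75%, against 42.2%, 57.4% and 54.8%). The members called the same way in all 3 genotypes numbered 3 between cortex and hippocampus (32.8% of all genes), 10 between cortex and striatum (47.3%) and 8 between hippocampus and striatum (42.5%). These were 14.3%, 50% and 24.2% of the members called in WT mice, where over all genes the same share was 70.4%, 79.8% and 75.8%. With the WT calls taken without Hippocampus WT replicate 1, the members called in all 3 genotypes were 3 of 7 (42.9%) between cortex and hippocampus and 11 of 25 (44%) between hippocampus and striatum. Cox7a1, which entered the fit through its higher regions, is 1 of the 10. All 3, 10 and 8 also remained called in WT mice without Hippocampus WT replicate 1 or without Striatum WT replicate 5 where these entered the comparison. Without Cortex Shank3-HM replicate 2, all 3 between cortex and hippocampus were still called in Shank3-HM mice, but only 8 of the 10 between cortex and striatum, since Uqcrb (log2 difference -0.16, adjusted p = 0.0627) and Cox7a1 (log2 difference 0.80, adjusted p = 0.0625) no longer passed. Without Striatum Shank3-HT replicate 2, Ndufs4, Sdhc and Cox7a1 of the 10 were lost in Shank3-HT mice (17 members called between cortex and striatum, 56.3% of all genes, and 16 between hippocampus and striatum, 50.8%). Without Striatum Shank3-HM replicate 4, Cox7a1 of the 10 and Uqcrc2 of the 8 were lost in Shank3-HM mice (17 and 18 called, 55.1% and 52.3% of all genes), and without Striatum Shank3-HT replicate 5 none of the 10 or 8 was lost.

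Cox6a2, Uqcrc2 and Cox6b2 were the 3 between cortex and hippocampus. Ndufs3, Ndufs4, Ndufa1, Ndufb10, Sdhc, Uqcrb and Atp5a1 were called lower in cortex than in striatum in every genotype, and Ndufa10, Cyc1 and Cox7a1 higher, with all samples in the fit. Between hippocampus and striatum, Ndufa10, Ndufc2, Uqcrc2, Cyc1 and Atp5g1 were higher in hippocampus and Ndufa1, Ndufb10 and Cox6a2 lower. Ndufa1 between cortex and striatum gave a log2 difference of -0.54 with adjusted p = 1.90e-06 in Shank3-HT and of -0.69 with adjusted p = 1.18e-08 in Shank3-HM mice. Ndufb10 gave a log2 difference of -0.45 with adjusted p = 1.27e-09 in Shank3-HT and of -0.41 with adjusted p = 1.79e-08 in Shank3-HM mice, and Cyc1 a log2 difference of 0.27 with adjusted p = 0.00106 in Shank3-HT and of 0.30 with adjusted p = 3.03e-04 in Shank3-HM mice. In Shank3-HM cortex, the library with striatal markers was among these samples, and without it 20 members were called between cortex and striatum (58% of all genes), 18 of them among the 21, and 3 between cortex and hippocampus (43.3%), all among the 4.

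The 13 subunits encoded in mitochondrial DNA were highest in striatum and lowest in hippocampus by their medians. In WT mice they were called as 4 higher and 0 lower of 13 (median 0.22) for cortex against hippocampus, 0 higher and 7 lower of 13 (median -0.43) for cortex against striatum and 0 higher and 9 lower of 13 (median -0.65) for hippocampus against striatum. Of all genes, 46.6%, 59.3% and 56.1% were called in the same order, which also holds for the lists below. Without Hippocampus WT replicate 1 the shares of all genes were 45.3% in the first and 53.2% in the last. All 13 mtDNA-encoded subunits were below 0 between hippocampus and striatum, where 63 of the 80 nuclear members were above 0 (55 of 80 without Hippocampus WT replicate 1, with the 13 still below 0 and a median of -0.61). mt-Cytb, the cytochrome b of complex III, had a log2 difference of -0.78 (adjusted p = 4.08e-11), and mt-Nd4l of complex I -0.87 (adjusted p = 1.81e-05). Assembly factors, which build the complexes without staying in them, were called as 5 higher and 6 lower of 48 (median 0.0056), 9 higher and 12 lower of 48 (median -0.035) and 8 higher and 12 lower of 48 (median 0.018) in the same order, with Sco2, a copper chaperone of complex IV, at 0.89 between hippocampus and striatum (adjusted p = 1.72e-09). Enzymes of the citric acid cycle and the pyruvate dehydrogenase complex were called as 2 higher and 4 lower of 16 (median -0.044), 6 higher and 3 lower of 16 (median 0.043) and 9 higher and 2 lower of 16 (median 0.15). Regulators of mitochondrial biogenesis were called as 4 higher and 2 lower of 12 (median 0.12), 3 higher and 5 lower of 12 (median -0.18) and 0 higher and 6 lower of 12 (median -0.23), with Ppargc1b, a coactivator of respiratory genes, lower in hippocampus than in striatum (log2 difference -1.29, adjusted p = 3.42e-07) and Esrrg, a nuclear receptor of the ERR family, higher in cortex than in hippocampus (log2 difference 0.92, adjusted p = 5.42e-10). With Hippocampus WT replicate 1 left out, the calls for cortex against hippocampus and for hippocampus against striatum were 4 higher and 5 lower (median 0.054) and 7 higher and 13 lower (median -0.013) for the assembly factors, 2 higher and 4 lower (median -0.020) and 6 higher and 3 lower (median 0.082) for the citric acid cycle and 5 higher and 2 lower (median 0.15) and 1 higher and 5 lower (median -0.19) for the regulators.

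Markers of other cell types differed between the WT regions as well. All 10 oligodendrocyte markers were called lower in cortex than in hippocampus (median -1.06) and than in striatum (median -1.47), and their mean log2 level was 11.29 to 11.65 in WT cortex, 12.47 to 12.53 in WT hippocampus and 12.70 to 13.15 in WT striatum. Of 10 neuronal markers, 8 were called higher and 0 lower in cortex than in hippocampus (median 0.37), and 8 higher and 2 lower in cortex than in striatum (median 0.53). All 6 choroid plexus markers were called lower in cortex than in hippocampus (median -5.32), with a mean log2 level of 3.24 to 4.68 in WT cortex and 7.71 to 11.85 in WT hippocampus. Their part in the regional differences of the members was not tested.

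Promoters are shown for 3 members called between cortex and striatum in all 3 genotypes, Ndufb10 and Ndufa1, which were higher in striatum, and Ndufa10, which was lower. They are the 250 bases before the RefSeq transcription start (GRCm38.p6), 5′ to 3′ on the strand of the gene, in lower case, with the letters of a searched motif in capitals.
Ndufb10 (chr17:24724424-24724673, minus strand, capitals NRF1 core): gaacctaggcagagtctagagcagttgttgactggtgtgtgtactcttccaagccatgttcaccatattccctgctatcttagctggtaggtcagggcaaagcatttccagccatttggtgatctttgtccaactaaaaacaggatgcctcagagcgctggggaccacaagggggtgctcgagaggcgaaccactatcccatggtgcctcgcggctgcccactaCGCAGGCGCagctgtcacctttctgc
Ndufa1 (chrX:37191239-37191488, minus strand, capitals Sp1 box): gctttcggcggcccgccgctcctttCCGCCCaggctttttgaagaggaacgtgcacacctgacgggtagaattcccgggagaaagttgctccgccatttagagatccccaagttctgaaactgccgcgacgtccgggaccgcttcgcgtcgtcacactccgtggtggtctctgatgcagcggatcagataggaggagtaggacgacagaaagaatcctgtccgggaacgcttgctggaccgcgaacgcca
Ndufa10 (chr1:92473759-92474008, minus strand, capitals 2 Sp1 boxes): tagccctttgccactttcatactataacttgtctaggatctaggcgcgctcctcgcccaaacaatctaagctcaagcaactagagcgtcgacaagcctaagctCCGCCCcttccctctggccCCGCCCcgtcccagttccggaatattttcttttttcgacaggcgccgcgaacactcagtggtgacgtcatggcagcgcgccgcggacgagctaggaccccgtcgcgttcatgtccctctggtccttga
Each motif was searched on both strands. The windows reached from 250 bases before to 50 after the start, and were at hand for 66 of the 80 members (71 windows). The core of NRF1, a factor known from respiratory genes, spelled CGCANGCGC, was found in 24 of the 71 windows (33.8%), and in 8.611% of all 21263 windows of the same length. The YY1 word ATGGCGGC was in 9.859% against 3.019%, the ERR word TCAAGGTCA in 2.817% against 0.3339%, the GABPA word CCGGAAGT in 7.042% against 5.145%, and the Sp1 box GGGCGG in 39.44% against 46.2%.

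The comparison of genotypes asked whether loss of 1 or both intact Shank3 alleles changed these genes within a region (limma per region, the 3 genotypes fitted together, genes with a mean of at least 10 in the region). No member was called in any of the 9 comparisons. The comparisons of Shank3-HT and Shank3-HM mice with WT share the WT samples. The median SE of a member was 0.068 in cortex, 0.086 in hippocampus and 0.067 in striatum on the log2 scale. A p value above the threshold does not show that the levels were equal.

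In cortex, Shank3-HT mice had 0 of 80 members called in limma (0% of all genes) and 1 at an unadjusted p under 0.05 (2.68% of all genes, members 56 above and 24 below 0, median 0.016, where the median of all genes was -0.0011). Complex I had 31 of 37 members above 0 (median 0.026), and complexes II to V had medians of 0.012, 0.0070, 0.019 and 0.0015, of which those of complexes III and V changed sign under median centring. With 1 sample left out at a time, the lowest medians were -0.024 in complex III and -0.013 in complex V without Shank3-HT replicate 1, -0.0076 in complex IV without WT replicate 5, and 0.0012 in complex I without WT replicate 2. The smallest p was that of Ndufa4l2, with 54.6, 44.6, 48.0, 50.1 and 28.0 normalized counts in WT and 55.6, 61.8, 58.9, 60.4 and 62.5 in Shank3-HT cortex, which did not overlap (log2 difference 0.43, SE 0.20, unadjusted p = 0.0430, adjusted p = 1). In Shank3-HM cortex its values were 47.2, 44, 32.2, 68.7 and 43.7, a range that takes in the whole Shank3-HT range and part of the WT one.

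Shank3-HM cortex had 0 of 80 members called (0.0121% of all genes) and 0 at an unadjusted p under 0.05 (5.49% of all genes, members 35 above and 45 below 0, median -0.011). The medians of complexes I to V were 0.015, 0.0087, -0.019, -0.026 and -0.017, of which that of complex II changed sign under median centring. Each of the 5 changed sign when 1 particular sample was left out, to -0.018 in complex I without WT replicate 5, to -0.0088 in complex II without Shank3-HM replicate 5, and to 0.019, 0.015 and 0.032 in complexes III, IV and V without Shank3-HM replicate 4. Without Shank3-HM replicate 2, the median was 0.00057 (41 above and 39 below 0). The smallest p was that of Cox7a2l, a factor of respiratory supercomplexes, with 2688, 2481, 2609, 2479 and 2459 in WT and 2678, 2669, 2734, 2699.8 and 2665 in Shank3-HM cortex (log2 difference 0.081, SE 0.041, unadjusted p = 0.0632, adjusted p = 0.877). The Shank3-HM values overlapped with the WT range only through its highest sample. Between the mutant genotypes 0 members were called (0.00606% of all genes), with 2 at an unadjusted p under 0.05 (4.87% of all genes), and complex medians of -0.026, -0.0061, -0.019, -0.057 and -0.020. Cox6a2 had the smallest p, with 141, 205, 139, 131 and 129.9 in Shank3-HT and 111, 72.1, 111, 135 and 115 in Shank3-HM cortex (log2 difference -0.46, SE 0.18, unadjusted p = 0.0185, adjusted p = 0.959, and log2 difference -0.32, unadjusted p = 0.0616, adjusted p = 0.936 without Shank3-HM replicate 2), and the ranges overlapped.

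In hippocampus, most members lay below WT in both mutants, and the size of the differences depended on 2 WT libraries. Shank3-HT hippocampus had 0 of 80 called (0.00603% of all genes) and 2 at an unadjusted p under 0.05 (5.26% of all genes, members 6 above and 74 below 0, median -0.085), and Shank3-HM hippocampus 0 of 80 (0.00603%) and 3 (4.73% of all genes, members 5 above and 75 below 0, median -0.086). The medians of all genes were 0.0056 and 0.0037. The complex medians in Shank3-HT hippocampus were -0.079, -0.064, -0.094, -0.094 and -0.065 for complexes I to V, and in Shank3-HM hippocampus -0.088, -0.062, -0.10, -0.077 and -0.084. Without Hippocampus WT replicate 1, the median over all members was -0.0087 in Shank3-HT (34 above and 46 below 0) and -0.010 in Shank3-HM mice (33 above and 47 below 0), with 0 called in both (0.00603% of all genes in each) and 0 and 1 at an unadjusted p under 0.05 (5.58% and 3.99% of all genes). The median turned to 0.0020 for complex I in Shank3-HT and to 0.013 for complex IV in Shank3-HM mice. When Hippocampus WT replicate 2 was left out, the medians over all members were -0.13 and -0.13, with 0 called (0.00604% of all genes in each) and 18 and 17 at an unadjusted p under 0.05 (6.87% and 6.45% of all genes). Between the mutant genotypes, which do not use these libraries, the median was -0.0020 with 0 called (0.00603% of all genes) and 0 at an unadjusted p under 0.05 (2.09% of all genes, complex medians -0.013, -0.018, 0.0024, -0.0012 and 0.0068). Atp5g2 had the smallest p there (log2 difference -0.27, SE 0.24, unadjusted p = 0.274, adjusted p = 1). Choroid plexus markers were all 6 below 0 in Shank3-HT hippocampus (median -1.40, 0 called, 1 at an unadjusted p under 0.05), and their part was not tested.

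Hippocampus WT replicate 1 had the highest value of the 5 WT hippocampi for 74 of the 80 members, where over all genes it was the highest for 30.7%. Its values exceeded the median of the other 4 by a median of 0.39 on the log2 scale and were above the median of the other 4 for 78 members. By complex, these medians were 0.40 in complex I, 0.21 in complex II, 0.32 in complex III, 0.33 in complex IV and 0.38 in complex V. The members took up 0.927% of all normalized counts in this sample, and between 0.598% and 0.757% in the 40 samples outside WT hippocampus. The same sample stood above its group median for cytosolic ribosomal protein genes (0.43), mitochondrial ribosomal protein genes (0.37) and other genes with transcripts under 1000 nt (0.26), and at -0.16 for genes with transcripts over 4000 nt, -0.19 for the mtDNA-encoded subunits and 0.10 for neuronal and -2.16 for choroid plexus markers. Their part in its high member levels was not tested.

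**Figure D3:**
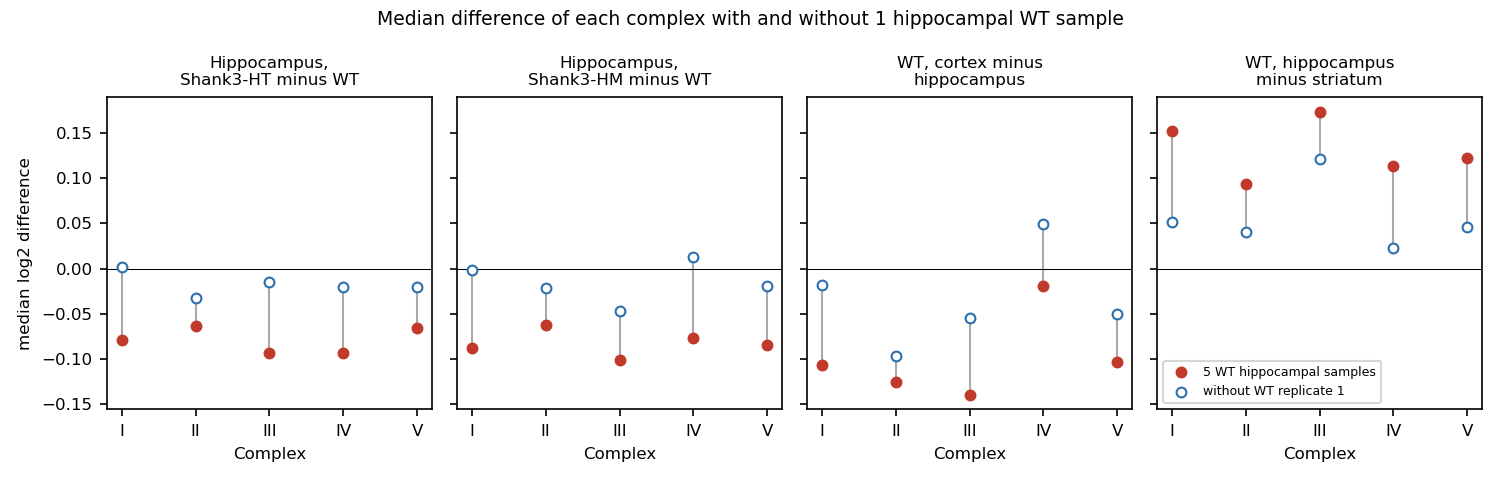
Median log2 difference of each complex from WT hippocampus in Shank3-HT and Shank3-HM mice, and of the WT region pairs that include hippocampus, in red with all 5 WT hippocampal samples and in open blue without WT replicate 1. Every complex moves toward 0 in the mutant panels, where the medians over all members go from -0.085 and -0.086 to -0.0087 and -0.010.

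Uqcrfs1 had the smallest p in Shank3-HT hippocampus, with 2301, 1904, 1903, 1946 and 1927 normalized counts in WT and 1808, 1736, 1728, 1895 and 1842 in Shank3-HT mice. All Shank3-HT values were below the WT values (log2 difference -0.14, SE 0.064, unadjusted p = 0.0365, adjusted p = 0.926, and log2 difference -0.093, unadjusted p = 0.110, adjusted p = 0.937 without replicate 1). Cox6c, a membrane subunit of complex IV, had the smallest p in Shank3-HM hippocampus, with 4779.6, 3463, 3519.9, 3479.6 and 3515 in WT and 3334, 3034, 3361, 3360.1 and 3189.6 in Shank3-HM mice. These did not overlap either (log2 difference -0.19, SE 0.078, unadjusted p = 0.0231, adjusted p = 0.920), and the WT mean of Cox6c rested on replicate 1, which was far above the other 4 (without it, log2 difference -0.10, unadjusted p = 0.0474, adjusted p = 1).

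In striatum, most members lay slightly above WT in both mutants. Shank3-HT striatum had 0 of 79 members called (0.00607% of all genes; Cox7a1 was under the limit of 10) and 3 at an unadjusted p under 0.05 (7.43% of all genes, members 72 above and 7 below 0, median 0.066, against -0.0058 over all genes). Shank3-HM striatum had 0 of 79 called (0.182% of all genes) and 6 at an unadjusted p under 0.05 (7.43% of all genes, members 63 above and 16 below 0, median 0.040, against 0.00072 over all genes). The complex medians in Shank3-HT striatum were 0.057, 0.068, 0.061, 0.094 and 0.066, and in Shank3-HM striatum 0.039, 0.076, 0.020, 0.021 and 0.057, of which those of complexes III and IV changed sign when Shank3-HM replicate 1 was left out. Without Striatum WT replicate 5 the medians over all members were 0.070 and 0.044, and no member was called (0.00607% and 0.188% of all genes). The median in Shank3-HT striatum was 0.062 without Shank3-HT replicate 2 (71 of 79 above 0) and 0.085 without Shank3-HT replicate 5 (72 above 0), and that in Shank3-HM striatum 0.037 without Shank3-HM replicate 4 (57 above 0), with 0 called in each (0%, 0% and 0.127% of all genes). In these fits 1, 6 and 5 members were at an unadjusted p under 0.05 in limma (5.04%, 5.76% and 7.45% of all genes). The Shank3-HM median was lowest without Shank3-HM replicate 1 (0.018) and highest without WT replicate 1 (0.068). Between the mutants 0 were called (0.14% of all genes), with 2 at an unadjusted p under 0.05 (6.49% of all genes) and complex medians of -0.014, 0.0019, -0.044, -0.024 and -0.029.

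Atp5g2, the least expressed of the genes for the c subunit, had the largest difference of any member in Shank3-HM striatum. The 5 WT striata had 137, 96.6, 159, 217 and 186 normalized counts, those of Shank3-HT mice 121, 132, 173, 134 and 137 and those of Shank3-HM mice 98.0, 87.9, 117, 125 and 66.1. The Shank3-HM values were all below 4 of the 5 WT values, and 3 of them were above the lowest WT value. The gene did not pass the threshold (log2 difference -0.67, SE 0.20, unadjusted p = 0.00389, adjusted p = 0.341). Its share of the 3 c subunit genes was 2.99 ± 0.815% in WT and 1.83 ± 0.399% in Shank3-HM striatum (SD, n = 5), and the other two genes made up the rest. In WT cortex the same gene had 58.8, 104, 101, 162 and 250.5 normalized counts. Ndufa8 had the smallest p in Shank3-HT striatum, with 1348, 1125, 1220.4, 1177 and 1323 in WT and 1379, 1371, 1309, 1400.2 and 1344 in Shank3-HT mice (log2 difference 0.14, SE 0.056, unadjusted p = 0.0241, adjusted p = 0.656), and the ranges overlapped.

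Core or catalytic subunits were taken from complexes I, II, III and V (Ndufs1, Ndufv1, Sdha, Sdhb, Uqcrc1, Uqcrfs1, Cyc1, Atp5a1 and Atp5b). For complex IV, the accessory subunits Cox5a and Cox5b were taken. The log2 differences of all these genes from WT ranged from -0.11 to 0.10 in cortex and striatum of both mutants. In hippocampus all 22 differences were below 0, from -0.16 (Cox5a) to -0.033 (Ndufs1), and without Hippocampus WT replicate 1 they ran from -0.093 (Uqcrfs1) to 0.047 (Sdhb), with 17 below 0. In striatum Sdha had 9829 ± 284 normalized counts (WT), 10029 ± 238 (Shank3-HT) and 9936 ± 298 (Shank3-HM; SD, n = 5). Atp5b stood at 24859.8 ± 2419.6, 24131 ± 663 and 23838 ± 1885 in the same groups. The mtDNA-encoded subunits had 0 of 13 called in all of these comparisons, and in Shank3-HM striatum 12 of 13 were below 0 (median -0.17), with 0 at an unadjusted p under 0.05, where 63 of 79 nuclear members were above 0.

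**Figure D4:**
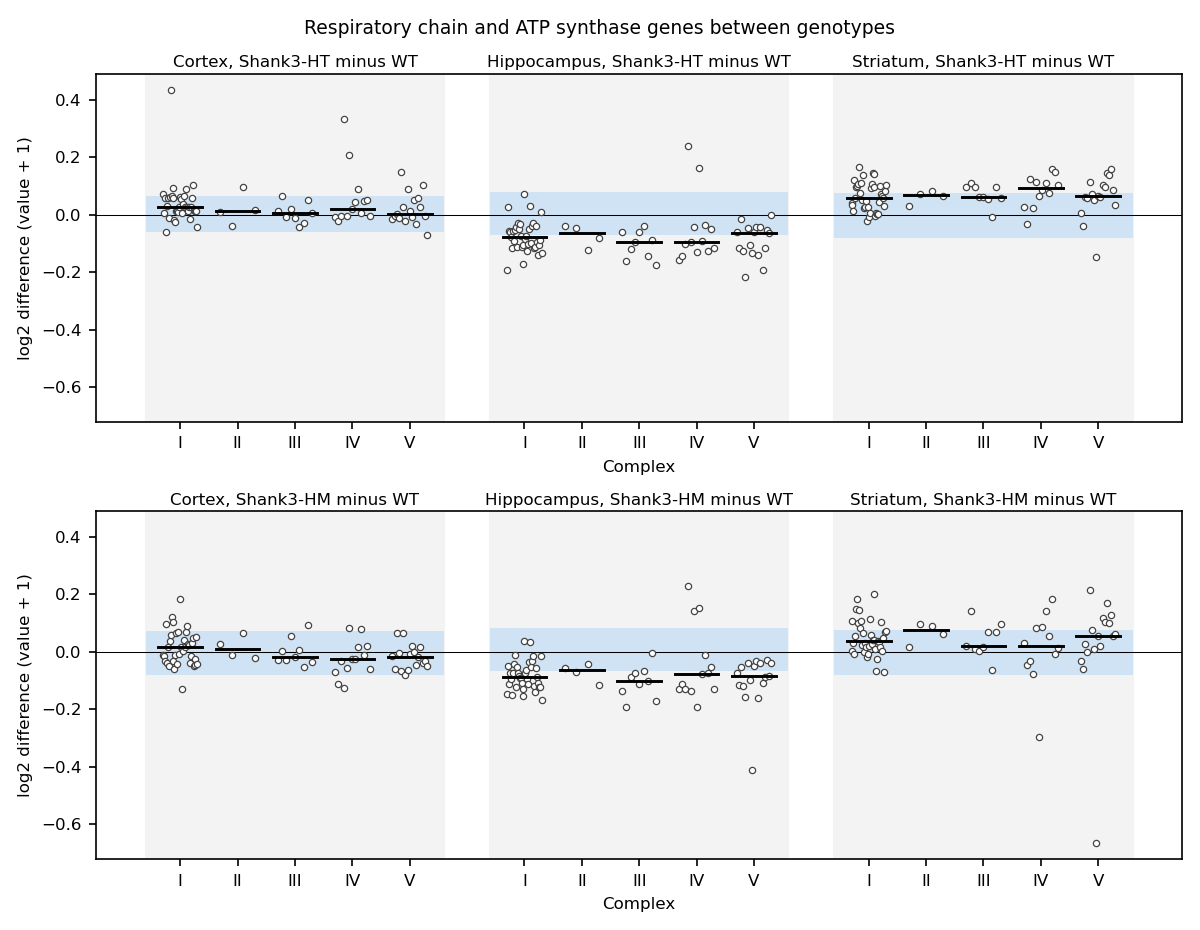
Log2 differences of Shank3-HT and Shank3-HM mice from WT for the members of each complex in cortex, hippocampus and striatum, with 1 point per gene and a bar at the median. The medians are near 0 in cortex, below 0 in hippocampus (74 and 75 of 80) and above 0 in striatum (72 and 63 of 79), and no gene is called.

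Per sample, the mean log2 level of the members relative to all genes overlapped between genotypes in each region. In cortex it ran over 1.93 to 2.11 (median 1.98) in WT, 1.98 to 2.10 (median 2.05) in Shank3-HT and 1.87 to 2.07 (median 2.03) in Shank3-HM samples. In hippocampus it ran over 1.89 to 2.43 (median 2.03), 1.95 to 2.09 (median 1.98) and 1.88 to 2.07 (median 2), and in striatum over 1.91 to 2.08 (median 1.96), 1.98 to 2.15 (median 2.02) and 1.95 to 2.12 (median 2.05). The highest WT hippocampal sample is the library described above. Oligodendrocyte markers moved beside the striatal and cortical differences. All 10 were above 0 in Shank3-HT striatum (median 0.36, 0 called, 9 at an unadjusted p under 0.05), in Shank3-HM striatum (median 0.21, 0 called), and in both mutants of the cortex (medians 0.21 and 0.18, 0 called). Of 6 markers of parvalbumin interneurons, 5 were above 0 in Shank3-HT striatum (median 0.13) and 6 in Shank3-HM striatum (median 0.22), with 0 called and 3 at an unadjusted p under 0.05 in each. Their mean log2 level relative to all genes was 2.93 to 3.07 (median 2.96) in WT, 3.08 to 3.47 (median 3.31) in Shank3-HT and 3.13 to 3.29 (median 3.19) in Shank3-HM striatum, so that the mutant samples lay above all WT samples. Pvalb itself ranged over 92.0 to 174 normalized counts in WT, 139 to 445 in Shank3-HT and 130 to 190 in Shank3-HM striatum, which overlapped. In WT cortex Pvalb ranged over 814 to 1199, although the list was lower there (11.08 to 11.19) than in WT striatum (11.39 to 11.52). The level of the list thus did not follow Pvalb between these regions. Of 8 astrocyte markers, 8 were above 0 in Shank3-HT striatum (median 0.12, 0 called, 3 at an unadjusted p under 0.05) and 4 in Shank3-HM striatum (median -0.0092, 0 called). The part of these markers was not tested.

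**Figure D5:**
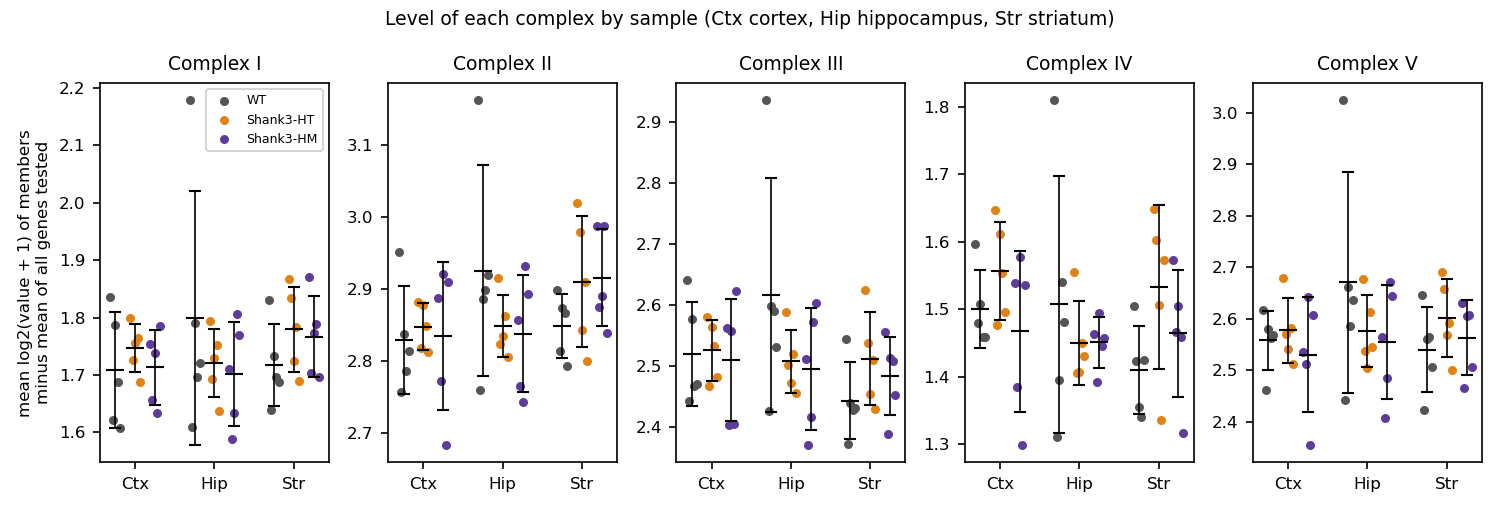
Mean log2 level of the members of each complex minus the mean of all genes, 1 panel per complex and 1 point per sample, by region and genotype. The genotypes overlap in each panel and region, and 1 WT hippocampal sample lies above its group in every panel.

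Whether a genotype difference itself differed between regions was tested by interaction terms in the fit of the 9 groups. No member was called in any of the 6 tests. For Shank3-HT mice, 3, 0 and 13 of 80 were at an unadjusted p under 0.05 for cortex minus hippocampus, cortex minus striatum and hippocampus minus striatum (0% of all genes called in each, and 3.35%, 3.46% and 5.6% of all genes at that p). For Shank3-HM mice these were 2, 0 and 10 (0%, 0.0539% and 0.0718% of all genes called, and 4.45%, 5.42% and 5.37% at that p). Without Hippocampus WT replicate 1, the members at an unadjusted p under 0.05 were 0 and 0 for cortex minus hippocampus and 3 and 2 for hippocampus minus striatum in Shank3-HT and Shank3-HM mice (of all genes, 3.06% and 3.49%, and 5.55% and 4.42%). Leaving out Hippocampus WT replicate 2 instead gave 14 and 6, and 32 and 21, with 0 called (of all genes, 5.09% and 5.54%, and 7.28% and 6.61% were at that p). For cortex minus striatum in Shank3-HM mice, 0 members were called either without Cortex Shank3-HM replicate 2 (0.0419% of all genes) or without Striatum WT replicate 5 (0.132%), with 0 and 1 at an unadjusted p under 0.05 (4.96% and 5.98% of all genes). The medians for hippocampus minus striatum were -0.15 and -0.13, and -0.073 and -0.055 without Hippocampus WT replicate 1. Atp5j, coupling factor 6 of the peripheral stalk of complex V, had the smallest p between hippocampus and striatum in both mutants (in Shank3-HT mice, log2 difference -0.24, SE 0.083, unadjusted p = 0.00524, adjusted p = 0.749). In Shank3-HM mice its values were log2 difference -0.28, SE 0.083, unadjusted p = 0.00169, adjusted p = 0.479. When Hippocampus WT replicate 1 was left out, they were a log2 difference of -0.17, unadjusted p = 0.0214, adjusted p = 0.846 in Shank3-HT mice and a log2 difference of -0.21, unadjusted p = 0.00664, adjusted p = 0.893 in Shank3-HM mice. In striatum Atp5j had 2391, 2120.4, 2437, 2290.1 and 2309.7 normalized counts in WT and 2538, 2445, 2508, 2482 and 2551 in Shank3-HM mice, and in hippocampus 2998, 2207, 2426, 2209 and 2591 and 2392, 2108, 2158, 2217 and 2192. The Shank3-HM values of the striatum lay above all WT values there, and those of the hippocampus overlapped with WT. The smallest p in the other 4 tests were those of Atp5j for cortex minus hippocampus (log2 difference 0.19, adjusted p = 1) and Ndufa8 for cortex minus striatum (log2 difference -0.16, adjusted p = 1) in Shank3-HT mice, and of Ndufa5 (log2 difference 0.24, adjusted p = 0.999) and Cox7b (log2 difference -0.19, adjusted p = 0.929) in Shank3-HM mice. Without Hippocampus WT replicate 1, Atp5j and Ndufa5 for cortex minus hippocampus were at unadjusted p = 0.104 and 0.0817, and without Cortex Shank3-HM replicate 2, Cox7b was at unadjusted p = 0.0933, each from limma.

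Replicate 1 had the highest mean member level in 7 of the 9 groups, and the labels do not say what samples of one number share. The sample that was highest for the members was also the highest for other transcripts under 1000 nt in 8 of 9 groups, for mitochondrial ribosomal protein genes in 7, for cytosolic ribosomal protein genes in 4 and for the mtDNA-encoded subunits in 1. The part of transcript length in the spread of the members was not tested. The median coefficient of variation of a member within a group of 5 was 14.9% in WT hippocampus and 5.1% to 8.6% in the other groups. Sdha had the lowest coefficient of variation of all members in 4 of the 9 groups, and the highest was that of Atp5g2 in 4 and of Cox7a1 in 5.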

How the data were processed

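RNA of 45 samples (3 regions, 3 genotypes, 5 each) was sequenced after stranded poly(A) library preparation. The authors quantified transcripts with Salmon 1.1.0 (quasi-mapping, GC bias correction, GRCm38), imported them with tximport and deposited DESeq2-normalized counts, a signal with decimals (submitters' processing notes name DESeq2 1.26.0 and R 3.6.2). Whole reads could not be recovered, so that no count model was fitted and the depth per sample is unknown. At the best of many trial steps per sample, 12.69% to 31.95% of low values lay within 0.05 of a whole multiple. The share by chance is 10% for a given step and higher for the best of many. The deposited columns of the homozygous group are marked KI where the labels say knock-out, and both were taken as Shank3-HM. Symbols came from a gene name table, which matched 18120 of 18135 IDs.

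Values were analysed as log2(normalized count + 1) with limma 3.58.1 in R 4.3.3 (lmFit, eBayes with an intensity trend, two-sided, Benjamini-Hochberg over all genes tested, threshold 0.05), a fold change on this scale understating that of low genes. Genotypes were compared in a fit of each region (16507, 16571 and 16482 genes with a mean of at least 10), regions and interactions in 1 fit of the 9 groups (16708 genes). The replicates are separate samples by their labels, which do not tie them to mice, so that p-values measure the spread between samples. Scripts were tested on simulated data. Tables and figures were made in Python 3.11.15 with numpy 2.4.6, pandas 2.3.3, scipy 1.17.1 and matplotlib 3.10.9.

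Alternatives were another pseudocount (0.1), a mean of at least 100 or no filter, quantile normalization, median centring, no intensity trend, only the groups compared, a replicate block, and each replicate left out. Members and lists were chosen with earlier results of these data known. Named genes were, for each complex and WT region pair, the called member with the largest non-overlapping difference in each direction, for each other comparison the member with the smallest p, and lists of isoforms and of core subunits, with Cox5a and Cox5b for complex IV. Other members named, such as Ndufb10 and Ndufa10 with their promoters, and the comparison of replicate 1, the other short transcripts and the region pairs in mutant mice were chosen after their values were seen. Values of 1 member gene are not reported here.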

Additional observations from a re-analysis of the deposited data

Results flagged for a closer look

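The named genes and the complex levels were screened for a sample far from the other 4 of its group by Dixon's test, which gave 25 flags in 369 groups screened, where chance flags about 1 in 20 groups (18.45 here). All values are normalized counts of 1 gene in 1 sample.

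Hippocampus WT replicate 1 was set apart for 8 genes, in each case above the other 4 WT hippocampi. Its value was 2175 (others 1709 to 1803) for Ndufa12, 2301 (others 1903 to 1946) for Uqcrfs1, 5311 (others 4149 to 4428) for Uqcrc1 and 4780 (others 3463 to 3520) for Cox6c. It was 6714 (others 5608 to 5868) for Cox8a, 3462 (others 2583 to 2798) for Cox6b1, 259.5 (others 135.2 to 160.6) for Atp5g2 and 29460 (others 21570 to 22800) for Atp5b.

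In the other hippocampal groups, Shank3-HT replicate 1 was high for Cox5a at 1804 (others 1674 to 1690) and Cox5b at 3995 (others 2974 to 3181), Shank3-HT replicate 5 was low for Ndufa1 at 542.2 (others 609.9 to 632.2), and Shank3-HM replicate 2 was low for Ndufa5 at 1010 (others 1153 to 1177). In cortex, Shank3-HT replicate 1 was high for Cyc1 at 3059 (others 2691 to 2785) and Atp5d at 3580 (others 3031 to 3130), Shank3-HT replicate 2 for Cox6a2 at 205.3 (others 129.9 to 140.9) and Shank3-HT replicate 3 for Uqcrfs1 at 1867 (others 1710 to 1752). Cortex Shank3-HM replicate 4 was low for Cox5a at 1448 (others 1884 to 1994) and Atp5b at 19260 (others 21610 to 22400), and Cortex WT replicate 5 for Cox5b at 2647 (others 3250 to 3532). In striatum, Shank3-HM replicate 5 was high for Uqcrc2 at 4176 (others 3457 to 3599) and low for Atp5a1 at 17040 (others 18440 to 18770) and Cox6a1 at 3510 (others 4502 to 4757). Striatum Shank3-HM replicate 2 was low for Ndufa12 at 1202 (others 1527 to 1661), Striatum Shank3-HM replicate 1 was high for Atp5g1 at 2650 (others 2130 to 2223), and Striatum Shank3-HT replicate 5 was low for Ndufa4 at 2429 (others 2806 to 2930).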

How the results depend on the processing

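No result changed direction with a call under the alternatives run, and the 0 calls of the 9 genotype comparisons and 6 interaction tests held under every one of them. With only the 2 WT groups of a pair in the fit, 10 members were called between cortex and hippocampus (21 in the fit of all groups) and 21 between hippocampus and striatum (33), and the cause was not tested. Quantile normalization moved the complex II median between hippocampus and striatum to 0.15. With the median instead of the mean over members, the complex level of Shank3-HT minus WT striatum turned from 0.068 to -0.0050 for complex III. That of Shank3-HM minus WT striatum turned from 0.041 to -0.052 for complex III, and moved from 0.067 to 0.12 for complex II and from 0.055 to 0.14 for complex IV.

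With 1 sample left out at a time, members called between WT cortex and WT hippocampus numbered 7 to 27, from without replicate 1 to without replicate 2 of WT hippocampus, which also gave the ends of the other ranges. Between WT hippocampus and WT striatum the medians ran over 0.051 to 0.20 in complex I, 0.041 to 0.14 in complex II, 0.023 to 0.14 in complex IV and 0.053 to 0.20 over all members. For cortex minus hippocampus they ran over 0.019 to 0.14 in complex V and 0.028 to 0.15 over all members in Shank3-HT mice, and 0.00069 to 0.11 in complex IV in Shank3-HM mice. Atp5d between WT cortex and WT striatum lost its call under quantile normalization (adjusted p = 0.0520 in limma), under median centring (adjusted p = 0.0501) and in 5 leave-one-out fits (adjusted p up to 0.0736).

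Small medians changed sign under median centring (complexes III and V in Shank3-HT cortex, complex II in Shank3-HM cortex, complex IV between WT cortex and WT hippocampus) or quantile normalization (complex IV and all members between the mutant hippocampi, complex II between the mutant striata), and the median of all members in Shank3-HM cortex did so, at up to 0.030, without any 1 of 4 samples.

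The replicate block gave 23, 27 and 43 members called in the 3 WT region pairs (21, 20 and 33 without it) and 0 in all genotype comparisons and interactions. The labels do not say what a number shares. Deviations from the group means of same-numbered samples correlated at -0.12 to 0.15 between genotypes of a region (median 0.022, 7 of 45 pairs over 0.1) and at -0.10 to 0.23 between regions of a genotype (median 0.067, 16 of 45 over 0.1), against medians of -0.0081 (21 of 180) and -0.018 (5 of 180) for unlike numbers. Between regions, same-numbered samples were thus over 0.1 more often than unlike ones, but the labels do not tie a number to a mouse. The main fits treated the samples as independent, and the replicate block gives the calls with same numbers taken as shared. Depth is unknown from normalized counts, so that no counting interval can be given.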
